A study of Mus musculus with 5375 samples.

Results

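Single lung endothelial cells (ECs) taken 3.5 days after tumor cells reached the circulation were compared with ECs of animals that received none. The cells were those that the authors kept after their own quality filters: 699 of the 1151 ECs sorted on day 3.5 and 839 of the 1152 ECs sorted for day 0, out of 2479 kept ECs in all and 5375 sorted cells of every kind. All animals were wild-type (WT) female BALB/c mice, 8 to 12 weeks old per the study's methods. Day 3.5 animals had been given 4T1-GFP cells, a BALB/c mammary carcinoma line that carries a green fluorescent protein, stained with the division dye CellTrace, in 2 injections into the tail vein, and day 0 animals were uninjected. ECs were sorted from lung digests as CD31+ cells without CD45, PDPN, LYVE1 and TER119, 1 cell to a well, and each was sequenced by a modified SMART-Seq2 protocol with single-end reads and without molecular identifiers. The animal was the replicate: 4 animals gave 26.5%, 26.9%, 25.1% and 21.5% of the kept ECs of day 0, and 3 animals gave 38.1%, 30.5% and 31.5% of those of day 3.5. Of the sorted ECs 62.5% to 78.5% per animal had been kept on day 0 and 55.5% to 69.5% on day 3.5. Day 0 animals 1 and 2 were sorted on the day of the day 1.5 animals and animals 3 and 4 on that of the day 3.5 animals. The uninjected group controls for neither the injection itself nor the handling, and it shared its sequencing lanes among its animals while each day 3.5 animal had a lane of its own, so that lane and day cannot be told apart.

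The lung capillary bed consists of 2 main kinds of cell, general capillary ECs (gCaps), which act as progenitors and regulate vascular tone, and aerocytes (aCaps), which are specialized for gas exchange. ECs answer circulating cytokines and cells that lodge in the capillaries: interferons induce antiviral genes, cytokines of the interleukin-6 family induce acute phase genes through STAT3, and growth factors change the production of the basement membrane on which ECs rest. Secreted endothelial products such as these (angiokines) can act on the arriving cells as well as on the vessel.

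The summed libraries held 75.6 to 95.8 M reads on day 0 and at least 92.5 M reads on day 3.5. The median number of genes detected per cell lay between 1951 and 2515 on day 0 and between 2313 and 2973.5 on day 3.5, and with each cell thinned to 100000 reads between 1523 and 1861 against 1920 and 2243, so that day 3.5 cells held more detected genes at equal depth in each animal. Pecam1, which encodes CD31, was detected in 99.76% of all kept ECs and Cdh5, the junction protein VE-cadherin, in 87.17%. Lyve1 RNA was found in 56.35% of them although the cells were sorted without LYVE1 protein. Markers of other cells were scarce: summed over each list they reached 3.2 to 21.3 CPM on day 3.5 against 0.1 to 45.3 CPM on day 0 for 9 leukocyte genes, 2.6 to 14.3 against 1.3 to 26.4 CPM for 9 mural and stromal genes, 15.8 to 112.4 against 24.2 to 92.4 CPM for 10 epithelial genes and 2.1 to 8.5 against 2.0 to 15.3 CPM for 4 keratins of tumor cells. Blood cell genes, mostly hemoglobins, reached 224.8 to 257.6 CPM on day 3.5 and 233.8 to 2833.6 CPM on day 0, where animal 4 held most of the hemoglobin gene Hba-a2. Ptprc, which encodes CD45, stayed at or under 0.069 CPM and Epcam, which marks epithelium, at or under 0.021 CPM in all 7 animals. The authors had taken out cells that expressed immune, stromal or mural markers, Ptprc among them, so the low values of the leukocyte and mural lists follow from that filter and check nothing.

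To ask which genes differed in the endothelium at this stage, each animal was described on a pair of scales. The first is the count of reads summed over its cells, which a few cells with many reads can dominate. The second is the mean over its cells of the deposited log values, brought to log2 and centered on the median gene of each library ("mean log2 value"). Before centering the median gene lay between 1.25 and 1.37 in the day 0 libraries and between 1.39 and 1.69 in those of day 3.5, and all differences are relative to it. On that scale every cell weighs the same and a cell without reads enters as 0, so the value follows both the level per cell and the share of cells with reads. On summed counts edgeR (quasi-likelihood, Benjamini-Hochberg) left 0 of 17560 genes (0%) under an adjusted p of 0.05. Without adjustment 1539 genes (8.76%) were under 0.05, 4.64% higher and 4.13% lower, and with DESeq2 473 of 16822 genes passed (2.81%), those toward higher values being 1.52% of the genes tested. On mean log2 values limma called 1.57% of 7578 genes, 1.36% higher and 0.211% (16 genes) lower on day 3.5, where 1233 genes (16.3%) had an unadjusted p under 0.05. The summed counts of all but 1 of the called genes differed in the same direction, 60 of them with an unadjusted edgeR p under 0.05. For all but 4 of them the mean log2 values of the groups did not overlap, which held for 8.6% of all tested genes toward higher and 7.19% toward lower values. CPM did not overlap for 4.88% of genes toward higher and 3% toward lower values. The number of calls changed with the animals in the fit: it fell to 0.158% of genes without day 3.5 animal 2 and to 0.277%, 0.594%, 0.528% and 0.805% without day 0 animals 1 to 4, and was 2.15% and 1.12% without day 3.5 animals 1 and 3. A fit without an animal also rests on fewer animals, and these fits cannot tell that from the values of the animal left out.

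The genes that rose were mostly present in a middle share of the cells. Of the genes detected in 40% to 60% of kept ECs, 35 of 899 were called higher and 0 lower, and of those in 60% to 80% of ECs 23 were higher and 0 lower. Among genes detected in 20% of cells or fewer 14 were higher and 13 lower of 3505. The median difference of all genes moved along, from -0.09 in the lowest of these ranges to 0.32 and 0.58 in the middle ones, while on summed counts the median log2 fold change lay between -0.11 and -0.02 in every range. The higher number of detected genes per cell on day 3.5 goes in the same direction, and its part in these calls was not tested beyond the fit that takes it as a covariate, in which 60 genes (0.792%) were called, 31 of them also called without it. In that fit the difference of Timp3 was 1.31 in place of 2.16 (limma, adjusted p 0.153), that of Zbtb16 1.04 in place of 1.69 (adjusted p 0.214), that of Cebpd 1.42 in place of 2.13 (adjusted p 0.105) and that of Sparcl1 0.61 in place of 0.98 (adjusted p 0.249). Also not called in it were Tmem88 (2.09 in place of 2.56), Rps20 (1.87 in place of 2.33) and Rpl32 (1.72 in place of 2.21). The same held for Bst2 (1.01 in place of 1.21), Prdm1 (-0.64 in place of -0.78) and Cdkn2b (-0.64 in place of -0.84). Cemip2 (1.67 in place of 2.43), Serpina3i (0.99 in place of 1.46) and Ldha (0.94 in place of 1.33) were not called either. The limma adjusted p of these genes lay between 0.0538 (Rps20) and 0.171 (Ldha).

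**Figure D1:**
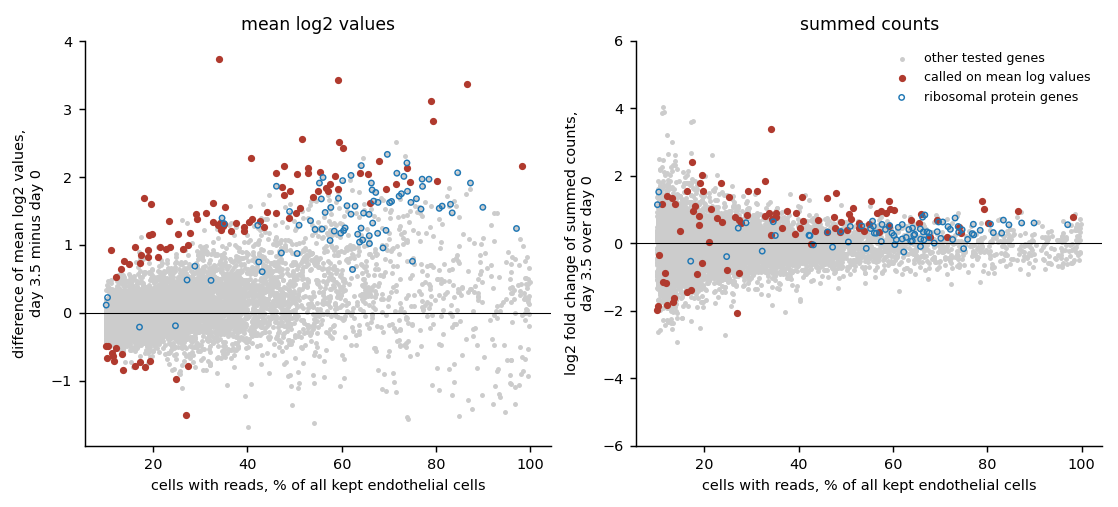
Each point is a tested gene, placed by the percentage of all kept ECs with reads (x axis) and by its difference between day 3.5 and day 0 (y axis) as a mean log2 value (left) or as a log2 fold change of summed counts (right). The called genes (red) spread upward between 20% and 80% on the left, with the ribosomal protein genes (blue rings) mostly above 0 on both scales.

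The secreted glycoprotein gene Lrg1, a member of the STAT3 and acute phase list, had the largest difference of all called genes. Of 12 listed members tested on mean log2 values, Lrg1, Cebpd and Bcl3 were higher (1.36% over all genes) and none was lower, the groups did not overlap toward higher values for 7 (8.6% over all genes), and the median member was 0.46 higher against -0.01 for all genes. Lrg1 (chr17:56119678-56122001, GRCm38), whose product modifies endothelial TGF-beta signaling, stood at 98.3, 97.7, 14.3 and 71.7 CPM in day 0 animals 1 to 4 and at 204.2, 669.7 and 1459.6 CPM in day 3.5 animals 1 to 3. Reads of Lrg1 were found in 7.2, 8.4, 4.3 and 11.1% of day 0 cells and in 24.8, 61 and 71.8% of day 3.5 cells. All day 3.5 animals lay above all day 0 animals, with animal 1 well below the other two. The mean log2 value was 3.73 ± 0.60 (SE) higher (limma, adjusted p 0.00243), and at equal depth Lrg1 was present in 40.6 ± 19.6% of day 3.5 cells (SD, n = 3) against 5.15 ± 3.07% on day 0 (SD, n = 4).

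Sbno2 (chr10:80056992-80105571), a transcriptional regulator induced through STAT3, was not on that list and was named as 1 of the 12 largest rises. It was measured at 81.7, 153.2, 65.2 and 52.5 CPM on day 0 and at 253.3, 219.5 and 245.4 CPM on day 3.5, in 19.8, 26.1, 21.8 and 18.9% against 45.9, 54.9 and 50.9% of cells. The 3 injected animals were close to each other and above every control. The mean log2 value rose by 2.28 ± 0.30 (SE, limma, adjusted p 0.00026), which was also called among the libraries sorted on day 3.5 alone (2.52, adjusted p 0.00368).

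Cebpd (chr16:15887286-15891031), a transcription factor of the acute phase response, was detected in 34.2, 44.2, 35.1 and 42.2% of day 0 cells and in 56, 67.1 and 72.7% of day 3.5 cells. Its summed counts overlapped, at 242.3, 288.3, 147.6 and 252.96 CPM on day 0 against 153.5, 362.3 and 589 CPM, where animal 1 lay among the controls. On mean log2 values, which did not overlap, it was 2.13 ± 0.45 higher (SE, limma, adjusted p 0.0176). Bcl3 (chr7:19808462-19822770), a nuclear partner of NF-kB subunits, went from 5.42 ± 3.40 CPM (SD, n = 4) to 29.97 ± 19.1 CPM (SD, n = 3), with 0.73 ± 0.18 on mean log2 values (limma, adjusted p 0.0356). Stat3 itself (0.53, adjusted p 0.366) and Socs3, the feedback inhibitor of the pathway (0.27, adjusted p 0.428), were not called.

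3 neighboring members of the Serpina3 cluster on chromosome 12, which encodes secreted inhibitors of serine proteases, were called too and are named here after their values were seen. Serpina3g (chr12:104236245-104241939) was found in 15.3, 21.2, 21.3 and 22.8% of day 0 cells and in 41, 47.9 and 44.5% of day 3.5 cells, at 15.1, 29.3, 36.5 and 27.8 against 154.6, 64.1 and 86.6 CPM. The groups did not overlap, and the mean log2 value was 1.62 ± 0.24 higher (limma, adjusted p 0.00108). Serpina3f (1.38 ± 0.23, adjusted p 0.00246) and Serpina3i (1.46 ± 0.27, adjusted p 0.00772) went with it. These genes are near-identical copies between which estimated counts can split reads, so that a value of any single copy is uncertain. Serpina3n, the member of this cluster on the STAT3 and acute phase list, was at 0.16 on mean log2 values (limma, adjusted p 0.547), while its summed counts were called higher by DESeq2 (adjusted p 0.00992) and not by edgeR (adjusted p 0.418).

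Promoters of Sbno2 and Serpina3g are shown because both genes were called in every setting tried on mean log2 values (edgeR on summed counts, adjusted p 0.404 and 0.352) and hold the STAT consensus TTCNNNGAA. The windows run from 250 bases before to 50 after a RefSeq start site (GRCm38.p6), 5′ to 3′ on the strand of the gene, with matches of the searched motifs in capitals. TTCNNNGAA was looked for on both strands, and it also occurs in 9.6% of the 27025 genes with a promoter. Sbno2 holds 1 match in each of 2 of its start sites (the first at chr10:80102653-80102952, minus strand, the second at chr10:80101138-80101437, minus strand), and Serpina3g holds 1 (chr12:104235897-104236196, plus strand).
Sbno2 first start site: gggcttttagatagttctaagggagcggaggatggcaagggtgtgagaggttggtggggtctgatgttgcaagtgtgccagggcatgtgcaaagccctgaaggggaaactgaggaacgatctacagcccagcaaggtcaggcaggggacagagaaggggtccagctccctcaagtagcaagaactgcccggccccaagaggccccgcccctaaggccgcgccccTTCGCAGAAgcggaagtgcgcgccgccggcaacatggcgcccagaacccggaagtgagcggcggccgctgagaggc
Sbno2 second start site: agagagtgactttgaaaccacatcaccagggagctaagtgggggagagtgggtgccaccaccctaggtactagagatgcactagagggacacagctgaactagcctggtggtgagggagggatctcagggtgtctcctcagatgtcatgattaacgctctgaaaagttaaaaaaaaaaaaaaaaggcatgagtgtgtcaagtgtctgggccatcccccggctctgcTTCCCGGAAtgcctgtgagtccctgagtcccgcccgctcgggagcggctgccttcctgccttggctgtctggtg
Serpina3g: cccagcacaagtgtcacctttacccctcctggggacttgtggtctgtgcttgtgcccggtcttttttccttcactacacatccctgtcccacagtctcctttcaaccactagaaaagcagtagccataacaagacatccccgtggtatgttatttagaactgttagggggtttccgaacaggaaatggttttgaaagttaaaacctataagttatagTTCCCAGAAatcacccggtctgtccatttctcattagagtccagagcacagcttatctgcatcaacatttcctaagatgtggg
Serpina3f and Serpina3i hold the motif as well, while the windows of Lrg1 and Bcl3 do not. Of the 69 genes called higher that had a promoter in the tables, 9 (13%) held it, against 8.4% of the 5443 tested genes with a promoter. Of the STAT3 and acute phase list itself 2 of 16 genes (12.5%) held it.

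Of the interferon response list, 24 of 34 members were tested on mean log2 values. Ifitm3, Xaf1, Bst2 and Usp18 were higher (1.36% over all genes) and none was lower, and the median member was 0.20 higher. The groups did not overlap for 8 members toward higher and for 1 toward lower values (8.6% and 7.19% over all genes). Summed over all 34 genes the list took 9763.3 to 12088.9 CPM on day 0 and 14452.1 to 20180.5 CPM on day 3.5. Most of that sum was Ifitm3 (chr7:141009586-141010770), a membrane protein that restricts virus entry, at 5617, 7479.7, 6499.6 and 6887 CPM on day 0 and 14717, 11205 and 9711 CPM on day 3.5. Every injected animal lay above every control. The mean log2 value was 2.16 ± 0.32 higher (SE, limma, adjusted p 0.00108), and within the libraries sorted on day 3.5 it was 1.97 higher (adjusted p 0.00368).

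Xaf1 (chr11:72301629-72313733), an interferon-induced promoter of apoptosis, was at 236.004, 263.4, 243.7 and 267.3 CPM on day 0 and at 838, 574 and 477 CPM on day 3.5. The 4 controls were close to each other and the injected animals all above them. Its mean log2 value rose by 2.08 ± 0.37 (limma, adjusted p 0.00487). The log2 fold change of its summed counts was 1.25 ± 0.21 (SE, edgeR adjusted p 0.199, DESeq2 adjusted p 1.09e-05). Usp18 (chr6:121245906-121270917), which removes the ubiquitin-like ISG15 and restrains the interferon receptor, was found in 5.4, 6.6, 6.2 and 6.7% against 14.7, 17.4 and 21.8% of cells, with 0.54 ± 0.13 on mean log2 values (limma, adjusted p 0.0356). Bst2 (chr8:71534255-71537456), which tethers virus particles to the cell surface, overlapped on summed counts, at 118.7, 90.2, 79.4 and 98.1 against 85.1, 151.2 and 127.3 CPM. It was found in more cells (24.3, 30.1, 27.5 and 35% against 44.7, 45.1 and 47.3%) and rose by 1.21 ± 0.31 on mean log2 values (adjusted p 0.0446). Of other members, Isg15 was at 0.47 ± 0.20 (limma, adjusted p 0.229). Ifi44 was at 0.50 ± 0.15 (limma, adjusted p 0.0838) and was called higher by DESeq2 on summed counts (adjusted p 0.0315), while Isg20 was at -0.38 ± 0.16 (limma, adjusted p 0.235) and was called lower by DESeq2 (adjusted p 0.0352).

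The promoters of Ifitm3 (chr7:141010695-141010994, minus strand) and Bst2 (chr8:71537423-71537722, minus strand) are shown for the interferon-stimulated response element, searched on both strands as GAAA, any 2 bases and GAAA again. Each holds 2 matches of it and 1 of TTCNNNGAA, and capitals run on where matches overlap.
Ifitm3: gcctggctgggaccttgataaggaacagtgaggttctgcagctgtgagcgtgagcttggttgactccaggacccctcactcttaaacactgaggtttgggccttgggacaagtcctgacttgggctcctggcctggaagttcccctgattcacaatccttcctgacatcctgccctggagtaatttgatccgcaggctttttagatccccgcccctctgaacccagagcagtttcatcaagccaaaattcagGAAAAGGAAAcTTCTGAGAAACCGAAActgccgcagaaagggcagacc
Bst2: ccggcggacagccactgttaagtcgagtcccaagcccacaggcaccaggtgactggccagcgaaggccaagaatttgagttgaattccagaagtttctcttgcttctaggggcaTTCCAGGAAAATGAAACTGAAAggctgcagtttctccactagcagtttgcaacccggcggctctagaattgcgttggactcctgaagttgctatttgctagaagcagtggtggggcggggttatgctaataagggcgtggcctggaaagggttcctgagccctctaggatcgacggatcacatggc
The window of Xaf1 holds neither motif. The element was present in 16 of the 25 genes of the interferon list with a promoter (64%), in 4.0% of all genes and in 3 of the 69 genes called higher (4.3%).

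Genes of the basement membrane and matrix formed the third group. Of 14 members tested on mean log2 values, Col4a1, Col4a2, Sparc and Sparcl1 were higher (1.36% over all genes), none was lower, and the median member was 0.43 higher. Over the 24 members tested on summed counts the median log2 fold change was 0.56, where the median of all genes was -0.06. The summed list took 2861.2 to 5073.2 CPM on day 0 and 6734.0 to 8272.7 CPM on day 3.5, of which Sparc, Col4a1 and Col4a2 held most. Col4a1 (chr8:11198423-11312826) encodes a chain of collagen IV, the main collagen of basement membranes. It was measured at 499, 562, 498 and 609.8 CPM on day 0 and 1013, 1255 and 1196 CPM on day 3.5. Its mean log2 value rose by 2.83 ± 0.48 (limma, adjusted p 0.00384).

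Col4a2 (chr8:11312805-11449287), which encodes the partner chain, was at 402, 653, 709 and 672 CPM on day 0 and 1545, 1622 and 1361 CPM on day 3.5, a rise of 3.12 ± 0.54 on mean log2 values (limma, adjusted p 0.00414). Neither collagen gene overlapped between the groups on either scale. On summed counts they had the smallest p-values among genes detected in at least 5% of cells, with log2 fold changes of 1.02 ± 0.15 and 1.24 ± 0.20 (SE), edgeR adjusted p of 0.181 and 0.199 and DESeq2 adjusted p of 7.11e-07 and 7.98e-05. The genes lie head to head on opposite strands and share exon bases, and reads from the shared bases cannot be told apart without strand. The same limit holds for Tmem88, Rpl32, Cebpd, Timp3, Stat3, Cxcl10, Rhpn2 and Khnyn, whose exons overlap those of Naa38, Cand2, Spidr, Syn3, Stat5a, Art3, Faap24 and Sdr39u1 on the opposite strand, and for other named genes that overlap predicted genes or RNAs. The promoter windows of the collagen genes share 78 bases at chr8:11312777-11312854, and they are shown because both genes moved.
Col4a1 (chr8:11312777-11313076, minus strand): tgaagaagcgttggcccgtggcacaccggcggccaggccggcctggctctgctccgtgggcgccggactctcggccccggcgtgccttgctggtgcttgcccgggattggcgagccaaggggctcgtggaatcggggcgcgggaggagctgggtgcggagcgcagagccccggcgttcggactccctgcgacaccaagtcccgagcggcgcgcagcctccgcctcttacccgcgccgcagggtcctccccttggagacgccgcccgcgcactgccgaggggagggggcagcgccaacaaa
Col4a2 (chr8:11312555-11312854, plus strand): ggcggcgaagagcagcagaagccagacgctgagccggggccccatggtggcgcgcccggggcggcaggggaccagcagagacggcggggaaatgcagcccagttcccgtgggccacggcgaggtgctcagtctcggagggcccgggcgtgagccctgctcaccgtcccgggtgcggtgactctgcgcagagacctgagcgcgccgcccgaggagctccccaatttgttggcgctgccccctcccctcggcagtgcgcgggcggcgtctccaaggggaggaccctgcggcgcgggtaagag
No capitals appear, since neither window held the interferon-stimulated response element, TTCNNNGAA or the E-box CACGTG, which was counted as well and occurs in 8.1% of all genes.

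Sparc (chr11:55394500-55423183), a secreted glycoprotein that binds collagen, stood at 964, 1439.5, 1392 and 1491 CPM on day 0 and 1782, 2934 and 3394 CPM on day 3.5. The groups did not overlap, and the mean log2 value rose by 3.37 ± 0.54 (limma, adjusted p 0.00246). It was found in 89.6 ± 3.51% of cells at equal depth (SD, n = 3) against 60.7 ± 11.8% (SD, n = 4). The related Sparcl1 rose by 0.98 ± 0.25 (adjusted p 0.0426) with overlapping summed counts of 224.4 ± 61.7 and 137.03 ± 52.3 CPM. Timp3, an inhibitor of metalloproteinases that is held in the matrix, was named after its values were seen. It stood at 114.3, 330.6, 214.7 and 177.2 CPM on day 0 and 240.9, 630.0 and 977 CPM on day 3.5, where animal 1 lay among the controls on this scale, and rose by 2.16 ± 0.47 on mean log2 values (limma, adjusted p 0.0211). Elastin was not called (0.51, adjusted p 0.382).

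**Figure D2:**
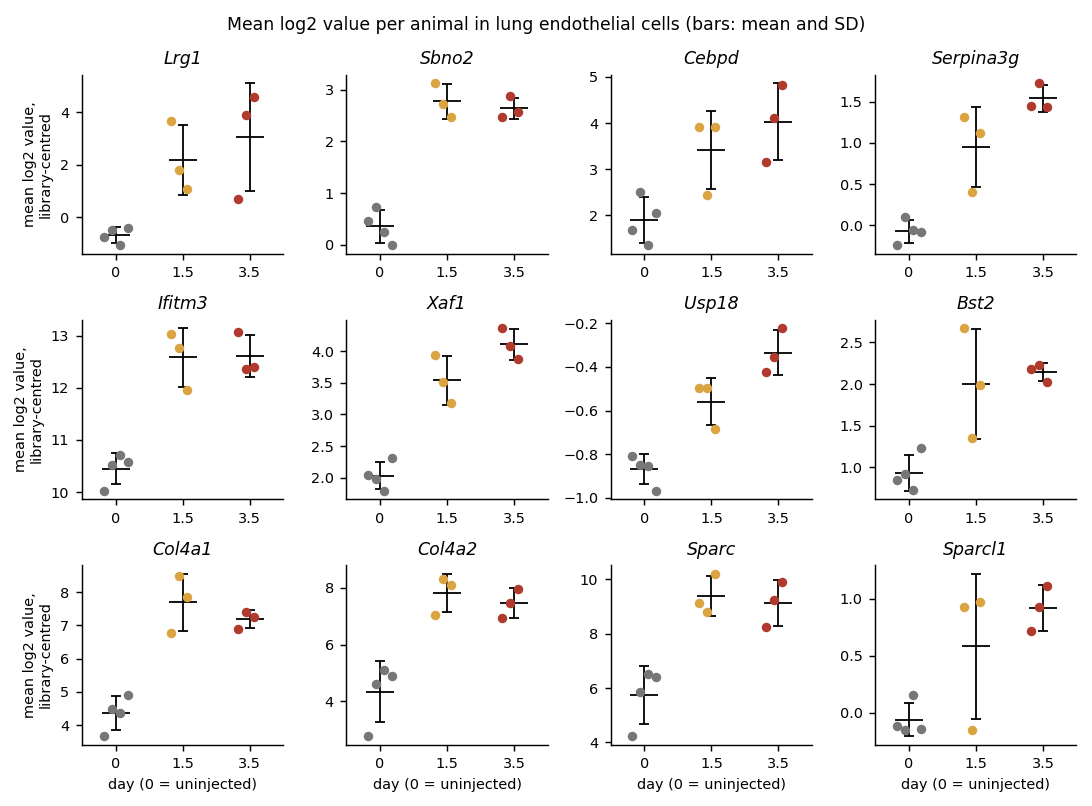
Mean log2 values, centered per library, of 12 genes (y axes) in each animal on days 0, 1.5 and 3.5 (x axes), with the mean and SD of each group. In every panel the 3 animals of day 3.5 lie above all 4 animals of day 0. Day 3.5 animal 1 is the lowest of its group for genes that include Lrg1, Sbno2, Cebpd, Col4a1, Col4a2 and Sparc.

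Some genes of protein synthesis rose on the mean log2 scale. Of 79 genes for cytosolic ribosomal proteins 21 were called higher and 0 lower, where the share over all genes was 1.36%. Their median difference was 1.47, and on summed counts it was 0.33, with 23 genes higher at an unadjusted edgeR p under 0.05 (4.64% over all genes), 0 lower (4.13%), and 4 called by DESeq2 (2.81%). Rps20, of the small subunit, stood at 234.97, 278.01, 274.3 and 263.5 CPM on day 0 and 431, 472 and 372.6 CPM on day 3.5 (2.33 ± 0.47 on mean log2 values, limma, adjusted p 0.0146). Rpl32, of the large subunit, stood at 496, 696, 531 and 579 against 834, 961 and 753 CPM (2.21 ± 0.48, adjusted p 0.021). For both genes the groups did not overlap. With sort day as a covariate no ribosomal protein gene was called. As most of these genes were found in the middle range of cells in which the median gene also lay higher, the part of that shift in the count was not tested.

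The biosynthesis list, which the study chose on these cells and which is no independent evidence of direction, holds ribosomal pseudogenes beside coding genes. Of its 9 members, all tested, 4 were called higher (1.36% over all genes) and 0 lower, and 7 did not overlap toward higher values (8.6% over all genes). S100a11, a calcium-binding protein, was at 192.97, 190.5, 254.6 and 124.5 CPM on day 0 and 386, 302.2 and 225.3 CPM on day 3.5, which overlapped, with 1.79 ± 0.38 on mean log2 values (limma, adjusted p 0.0176), which did not. Grrp1 rose by 1.45 ± 0.27 (adjusted p 0.00921). The pseudogenes Gm12854 (1.34, adjusted p 0.0356) and Rps15a-ps7 (1.47, adjusted p 0.0381) share sequence with their parent genes, between which reads can be split. Over all calls, predicted genes with Gm or Rik identifiers and pseudogenes made up 14 of the genes that rose and 5 of those that fell, out of 835 tested, where 1.36% of all genes tested rose and 0.211% fell.

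Among the remaining genes with the largest rises was Tmem252, at 276.3, 351.2, 316.8 and 397 CPM on day 0 and 368.4, 1044 and 1113 CPM on day 3.5. Animal 1 lay among the controls on this scale and the others above them, and the mean log2 value was 3.42 ± 0.58 higher (limma, adjusted p 0.00383). Tmem88, which binds Dishevelled and restrains Wnt signaling, was at 183.7, 232.4, 289.2 and 404 CPM on day 0 and 699, 619 and 489 CPM on day 3.5, without overlap (2.56 ± 0.50, adjusted p 0.0109). Cemip2, a hyaluronidase of the cell surface, was at 235.4, 240.5, 404 and 392 CPM on day 0 and 507, 627 and 847 CPM on day 3.5, without overlap, and rose by 2.43 ± 0.47 (adjusted p 0.0109). Atpif1, the inhibitor of the mitochondrial ATP synthase, rose by 2.52 ± 0.56 (adjusted p 0.0227), from 449.8 ± 115.6 to 945 ± 464 CPM.

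Fxyd5, a regulator of the sodium pump, rose by 2.24 ± 0.48 on mean log2 values (limma, adjusted p 0.0181) although its summed counts overlapped, at 718, 669, 642 and 676 against 583, 827 and 1015 CPM. The share of cells with reads was 41.9, 50.9, 60.2 and 66.7% on day 0 and 67.3, 79.3 and 80% on day 3.5, without overlap. Scgb3a1, a secretoglobin that is named after its values were seen, was at 75.5, 32, 116.2 and 471 CPM on day 0 and 850.0, 653 and 757 CPM on day 3.5. Control animal 4 was the nearest to the injected animals, and the mean log2 value rose by 1.61 ± 0.20 (adjusted p 0.00026). Scgb3a1 is also made by airway epithelium. The summed epithelial list given above overlapped between the groups. Its member Sftpb, a surfactant protein of alveolar epithelium, did not, at 0.0660, 0.397, 0.146 and 0.109 CPM on day 0 and 10.5, 2.35 and 2.47 CPM on day 3.5 (edgeR adjusted p 0.35, DESeq2 adjusted p 4.83e-06). Another surfactant gene of the list, Sftpa1, went the other way and was called lower by DESeq2. At equal depth it was found in 0.32% of day 3.5 cells against 0.68% of day 0 cells. The part of epithelial RNA in the value of Scgb3a1 was not tested.

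Single members of other lists were called. Zbtb16, a zinc finger protein induced by glucocorticoids, was found in 9.9, 14.2, 18 and 20.6% of day 0 cells and in 16.2, 51.6 and 51.4% of day 3.5 cells. Animal 1 lay within the range of the controls and the other two far above it, and the mean log2 value was 1.69 ± 0.38 higher (limma, adjusted p 0.027). It was 1 of 8 glucocorticoid response genes tested to be called higher (1.36% over all genes). All 8 had a positive difference, with a median of 1.04, but 0 of them were without overlap between the groups (8.6% over all genes), and the summed list ranged from 781.1 to 3678.7 CPM on day 3.5 against 911.5 to 1446.1 CPM on day 0. Ldha, the lactate dehydrogenase of glycolysis, was 1 of 13 hypoxia and glycolysis genes called higher (1.36% over all genes) with 0 lower, at 104.05, 89, 129.6 and 67.8 CPM on day 0 against 184.2, 235.3 and 167.9 CPM on day 3.5 (1.33 ± 0.32, limma, adjusted p 0.0355). On summed counts 3 genes of that list were higher (4.64% over all genes) and 3 lower (4.13%) at an unadjusted edgeR p under 0.05, and DESeq2 called 1 in each direction (2.81% in either direction over all genes).

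Of 33 lists, 23 had 0 members called on mean log2 values. Among the tested members of these were 20 antigen presentation genes (median 0.01, 2 not overlapping toward higher and 7 toward lower values, against 8.6% and 7.19% over all genes), 15 genes of the VEGF and Notch pathways (0.31), 17 of the BMP and TGF-beta pathways (0.04), 11 of endothelial inflammation and leukocyte adhesion (-0.04), 11 of junctions (0.31), 12 of flow response (0.16), 10 of hemostasis (0.36), 9 of lipid handling (0.04), 19 of ER folding (-0.07), 9 Wnt receptors and targets (0.07) and 9 of the circadian clock (0.13). On summed counts, with a median of -0.06 for all genes, some medians had the other sign. They were antigen presentation (-0.31), VEGF and Notch (-0.21), BMP and TGF-beta (-0.26), inflammation (0.10), junctions (-0.18), flow response (-0.05) and the clock (-0.23). Hemostasis (0.07), lipid handling (0.14), ER folding (-0.23) and Wnt genes (0.26) kept their sign. The immediate early and dissociation genes, which tissue digestion can induce, had 15 members tested and a median of 0.14. On summed counts their median was -0.25. Of the 23 members tested there, 0 were higher (4.64% over all genes) and 4 lower (4.13%) at an unadjusted edgeR p under 0.05. Of the 13 gCap markers 0 were called and 10 had a positive difference, with a median of 0.40. On summed counts their median log2 fold change was -0.24, and the summed list overlapped, at 5415.6 to 7100.5 CPM on day 3.5 against 6746.0 to 6931.0 CPM on day 0. The 10 pan-endothelial markers had a median of 0.06, with Cldn5, the tight junction protein claudin-5, at -0.65 (limma, adjusted p 0.33).

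**Figure D3:**
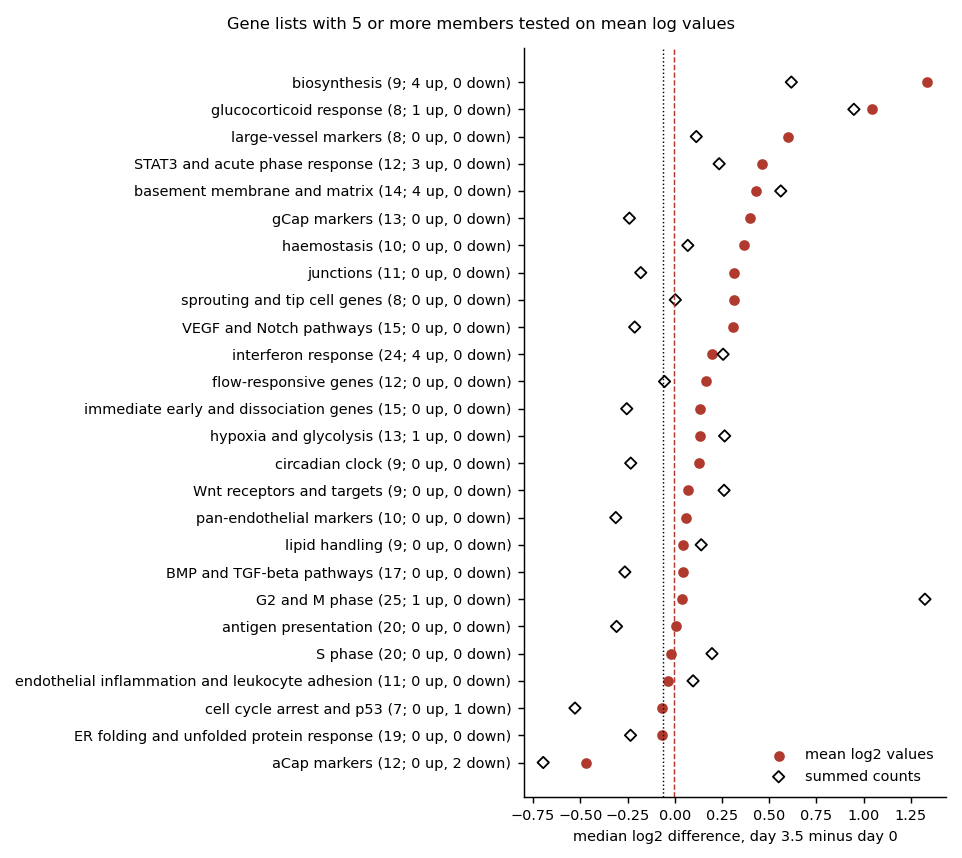
Median difference between day 3.5 and day 0 (x axis, log2) over the members of each gene list with at least 5 members tested on mean log2 values, as mean log2 values (filled red) and as summed counts (open). Numbers beside each list (y axis) give the members tested and those called higher and lower, and the dashed and dotted lines mark the medians of all genes at -0.01 and -0.06. The aCap list lies lowest on both scales.

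Of the 16 genes that were lower on day 3.5, 2 were on the list of aCap markers. All 12 members of the aCap list had a negative difference, with a median of -0.47 on mean log2 values and -0.70 on summed counts. The called members were Cdkn2b and Prdm1 (0.211% over all genes), and 5 did not overlap toward lower values (7.19% over all genes). The summed list went from 1089.9 to 1453.4 CPM on day 0 to 750.4 to 939.3 CPM on day 3.5. Cdkn2b (chr4:89306299-89311039), an inhibitor of cyclin-dependent kinases and thus also on the list of cell cycle arrest, was at 76.1, 63.3, 41.2 and 48.7 CPM on day 0 and 27.7, 20.7 and 9.66 CPM on day 3.5. The groups did not overlap, and the mean log2 value was lower (-0.84 ± 0.18, limma, adjusted p 0.021).

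Prdm1 (chr10:44437177-44528501), a transcriptional repressor, was at 188.1, 65.3, 56.8 and 11.9 CPM on day 0 and 29.98, 22.2 and 39.7 CPM on day 3.5, where control animal 4 was the lowest of all. On mean log2 values the groups did not overlap and the difference was -0.78 ± 0.18 (limma, adjusted p 0.0313). Ednrb, the endothelin receptor that marks aCaps, differed by -1.06 ± 0.30 (adjusted p 0.0672) and Alpl, an alkaline phosphatase, by -0.60 ± 0.19 (adjusted p 0.101), the latter called lower by DESeq2 on summed counts (adjusted p 0.0429). In values over all ECs, fewer aCaps and less RNA of these genes per aCap cannot be told apart. In gCaps alone the differences of Cdkn2b and Prdm1 were -0.33 ± 0.10 and -0.31 ± 0.13 (limma, adjusted p 0.113 and 0.245). On summed counts of gCaps the log2 fold changes were 1.81 and -0.25 (edgeR, unadjusted p 0.311 and 0.877). gCaps were chosen by a low score over the aCap list, which holds both genes. Smaller differences in gCaps are thus partly set by that choice.

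None of the other genes that fell among the 12 largest was found in over 30% of all kept ECs. Asl, the argininosuccinate lyase of arginine synthesis, was present in 23.9, 18.6, 22.7 and 24.4% of day 0 cells and 7.9, 15 and 15.9% of day 3.5 cells (-0.72 ± 0.15, limma, adjusted p 0.0176). Rhag, a membrane protein of red cells, had reads in 21.6, 18.6, 23.7 and 25% against 7.9, 16 and 11.8% of cells but only 1.33 ± 0.643 against 0.914 ± 0.207 CPM (-0.71 ± 0.14, adjusted p 0.0152). The hemoglobin gene Hba-a2, also of red cells, stood at 87.9, 182.5, 250.3 and 1415 CPM on day 0 and 105.5, 82 and 47.8 CPM on day 3.5 and was called lower by DESeq2 (adjusted p 0.0396), not by edgeR (adjusted p 0.455) or limma (adjusted p 0.358). The part of red cell RNA in the value of Rhag was not tested. Ces2g, a carboxylesterase (-0.70 ± 0.15, adjusted p 0.0176), Dele1, which relays mitochondrial stress (-0.79 ± 0.19, adjusted p 0.0335), and Strap (-0.60 ± 0.14, adjusted p 0.0313) fell as well. The widest fall was that of a processed pseudogene, Gm14667, at 1.81, 0.532, 1.71 and 3.27 CPM on day 0 and 0.476, 0.451 and 0.459 CPM on day 3.5 (-1.5 ± 0.32, adjusted p 0.0184). The unprocessed pseudogenes Cyp4b1-ps2 (-0.97) and Gm8815 (-0.79) and the predicted genes Gm17535 (-0.66) and Gm10715 (-0.63) were the rest of the 12 with the largest falls.

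On summed counts, among genes detected in at least 5% of cells, those with the smallest p-values beside Xaf1 and the collagens were Syt15, a synaptotagmin of vesicle traffic, Itpr3, a calcium channel of the endoplasmic reticulum, and Rhpn2, toward higher values. Syt15 stood at 42.4 ± 21.1 CPM (SD, n = 3) against 3.27 ± 0.987 CPM (SD, n = 4), Itpr3 at 52.7 ± 16.2 against 12.4 ± 2.11 CPM and Rhpn2 at 31.3 ± 6.04 against 5.68 ± 1.21 CPM. Toward lower values they were the ubiquitin ligase Neurl3 (20.2 ± 9.77 against 109.4 ± 33.3 CPM), Osgepl1, which modifies mitochondrial tRNA (0.524 ± 0.154 against 15.2 ± 9.46 CPM), Selenos, a selenoprotein of the endoplasmic reticulum (75 ± 26 against 199.7 ± 35.5 CPM), Khnyn (2.16 ± 1.21 against 20.9 ± 8.02 CPM), Vav3, a guanine nucleotide exchange factor (52.8 ± 2.59 against 120.8 ± 26.6 CPM) and Ckb, a creatine kinase (16.3 ± 7.79 against 90.9 ± 50.5 CPM). The edgeR adjusted p of the 12 genes lay between 0.181 and 0.35 and none passed, while DESeq2 called all 12. In single animals up to 79.6% of the day 3.5 reads (Khnyn) and up to 93.9% of the day 0 reads (Ckb) of such a gene came from 1 cell, and on mean log2 values none was called other than Xaf1, Col4a1 and Col4a2, with Osgepl1 and Khnyn too rare to be tested. Of the 473 DESeq2 calls, 55.4% were in genes detected in under 5% of cells, and 19 were also called by limma on mean log2 values.

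The study's angiokine list was given in full. Lrg1 is described above. Cxcl10, an interferon-induced chemokine for T cells, was absent from 3 of 4 control animals and at 5.88, 0.422 and 18 CPM on day 3.5, in 4, 3 and 3 cells against 1 cell on day 0, and within an animal up to 99.9% of its reads came from 1 cell. The edgeR adjusted p was 0.181 and that of DESeq2 2.65e-10, and no fold change is given against a group with a single read. Angpt2, the antagonist ligand of the Tie2 receptor, stood at 4.30, 19.8, 21.9 and 42.1 CPM on day 0 and 17.3, 17.5 and 4.94 CPM on day 3.5 (-0.29 ± 0.14 on mean log2 values, limma, adjusted p 0.304). Slit3, a ligand of Robo receptors, was at 2.72 ± 2.26 against 1.85 ± 1.95 CPM. Ccl5 had 0 reads in every cell of day 0 and day 3.5, where a count of 0 allows up to 0.429% of cells on day 3.5 and 0.358% on day 0.

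To ask whether the makeup of the endothelium differed, each cell was assigned to a class by the study's marker lists and limits on module scores. The classes are ranges of a score rather than discrete kinds of cell. aCaps made up 25.7%, 25.7%, 27.5% and 24.4% of ECs on day 0 and 24.8%, 16% and 18.6% on day 3.5. Animal 1 of day 3.5 was above the lowest control, and the mean difference was -6.01 percentage points (exact permutation test, 2-sided, p 0.0571, adjusted p 0.0952 over 5 classes). Large-vessel ECs made up 6.02 ± 1.63% (SD, n = 3) against 3.40 ± 1.10% (SD, n = 4), a difference of 2.62 points (exact p 0.0571, adjusted p 0.0952). gCaps differed by 2.31 points, at 67.5 ± 6.28% against 65.2 ± 1.32% (exact p 0.514). The smallest p that 3 against 4 animals can give is 0.0286, so that no single class could pass over 5 classes unless others did too.

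Of the 699 ECs of day 3.5, 15 were cycling, with 3, 2 and 10 cells in the animals. None of the 839 control ECs was, where a count of 0 allows up to 0.358%. The share of 2.20 ± 2.03% (SD, n = 3) had an exact permutation p of 0.0286 and an adjusted p of 0.0952. The class is set by the list of G2 and M phase genes, so these are not a second line of evidence for it: on summed counts 18 of 54 members were higher at an unadjusted edgeR p under 0.05, where that share was 4.64% over all genes, 0 were lower (4.13% over all genes), and 11 were called by DESeq2 (1.52%). Top2a, which untangles replicated DNA, was at 0.940, 4.50, 1.63 and 3.09 CPM on day 0 and 58.8, 7.16 and 53.2 CPM on day 3.5. Animal 2 was near the highest control and the other two above it (edgeR adjusted p 0.404). Of 25 members tested on mean log2 values, the only 1 called was Hmgb2, a chromatin protein that is abundant in dividing cells. It was higher (1.36% over all genes) by 1.17 ± 0.30 (limma, adjusted p 0.0481), with groups that overlapped on that scale. Of 20 S phase genes tested 0 were called (1.57% over all genes), with a median of -0.02.

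**Figure D4:**
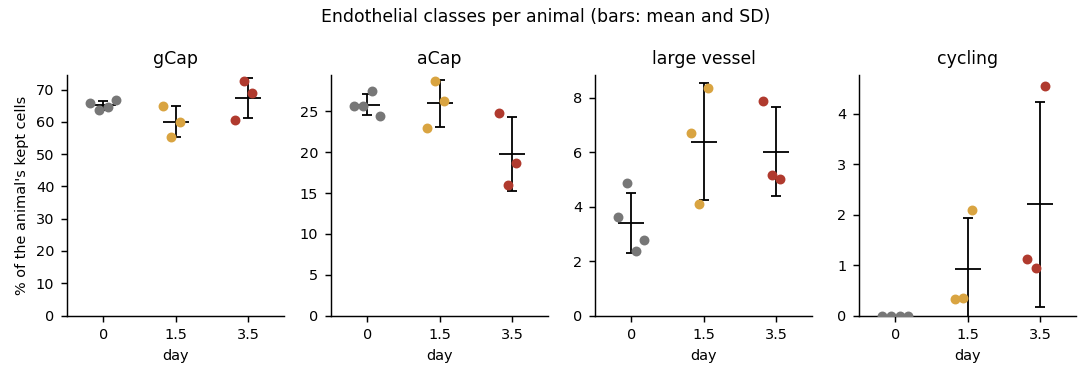
Share of each animal's kept ECs (y axes, percent) in 4 classes on days 0, 1.5 and 3.5 (x axes), with the mean and SD of each group. Of the aCap shares on day 3.5, 2 of 3 lie below every control, and cycling cells were found in all 3 animals of day 3.5 and in none of day 0.

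With gCaps alone, which holds the class of cell the same, 74 genes were called on mean log2 values (0.977%), 64 higher (0.845%) and 10 lower (0.132%), and 57 of them were also called over all ECs. Lrg1 (3.76 ± 0.57), Sbno2 (2.33 ± 0.34), Col4a1 (3.29 ± 0.53), Col4a2 (3.9 ± 0.57) and Sparc (3.28 ± 0.59) kept differences close to those over all ECs, with limma adjusted p between 0.000486 and 0.00505. Ifitm3 differed by 1.07 ± 0.32 in gCaps and was not called there (adjusted p 0.104). The difference between classes was not tested. On summed counts of gCaps edgeR called 1 of 16282 genes (0.00614%), Timp1 (adjusted p 0.0291), with 1218 genes (7.48%) at an unadjusted p under 0.05. Timp1 (chrX:20870166-20874735), a secreted inhibitor of metalloproteinases and member of the STAT3 list, had 0, 0.762, 0.0120 and 0 CPM over all ECs on day 0 and 42.4, 30.9 and 9.14 CPM on day 3.5, in 12, 12 and 7 cells against 3 cells in all on day 0.

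**Figure D5:**
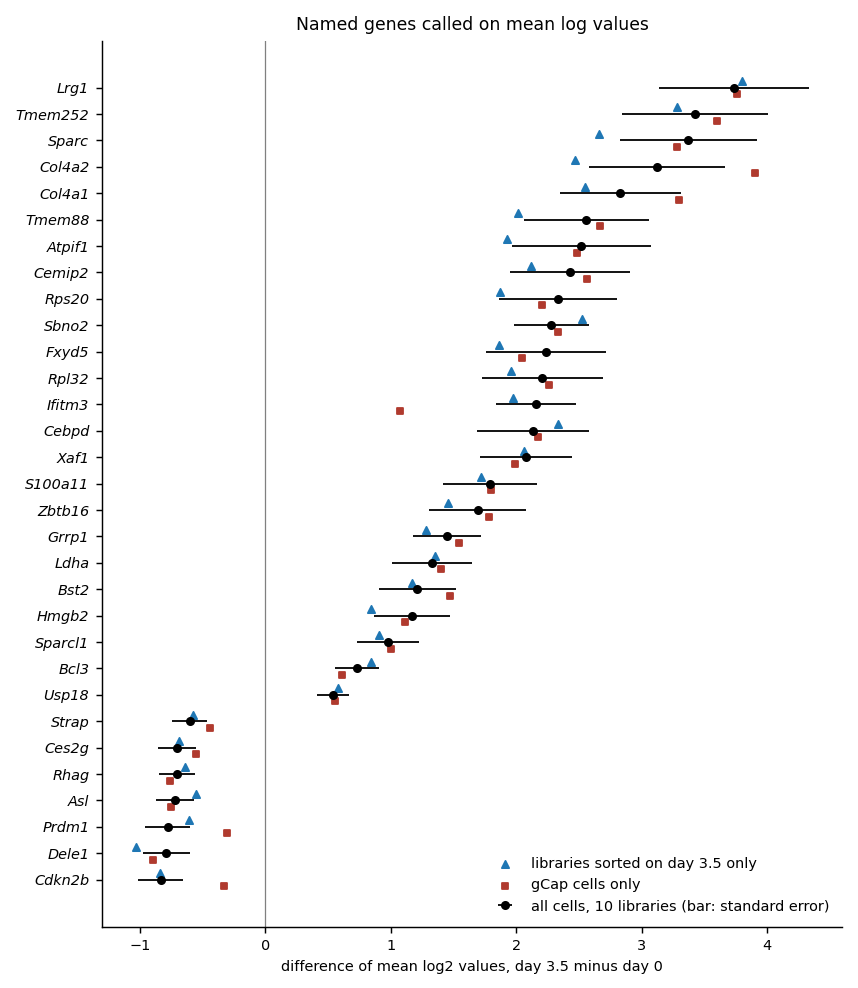
Difference of mean log2 values between day 3.5 and day 0 (x axis) for the named genes with a limma adjusted p under 0.05 (y axis), over all ECs with the standard error (black), among the libraries sorted on day 3.5 (blue triangles) and in gCaps alone (red squares). The 3 estimates lie on the same side of 0 for every gene shown, with gCap values nearer to 0 for Ifitm3, Cdkn2b and Prdm1. Cdkn2b and Prdm1 are on the aCap list, a low score over which defines gCaps.

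Of the covariates tried, sort day lowered the number of calls most. All day 3.5 animals shared a sort day, as did all day 1.5 animals. With this covariate the difference therefore rests on day 0 animals 3 and 4 alone. It equals that among the libraries sorted on day 3.5, and these fits differ in their estimate of the spread. The part of sort day in the lower number of calls cannot be told apart from that of fewer controls. With sort day as a covariate limma called 10 genes (0.132%) on mean log2 values. They were Lrg1, Sbno2, Ifitm3, Serpina3f, Serpina3g, Scgb3a1 and Mlec higher (0.0924%) and Dele1, Gm14667 and Gm17535 lower (0.0396%). Among the 5 libraries sorted on day 3.5 it called 8 (0.106%). They were Sbno2, Ifitm3, Serpina3f, Serpina3g, Col4a1 and Sparc higher (0.0792%) and Gm14667 and Tppp3 lower (0.0264%), and all but Tppp3 were also called over all libraries. Tppp3, which binds tubulin, was at 829, 949, 1082 and 1172 CPM on day 0 and 437, 565 and 397 CPM on day 3.5 without overlap (-1.63 ± 0.47 over all 10 libraries, limma, adjusted p 0.08). Every gene called over all libraries had the same direction in every setting tried on mean log2 values. The sizes depended on the scale. On log2(CPM + 10) the difference was 1.86 in place of 3.73 for Lrg1, 1.02 in place of 2.28 for Sbno2, 0.66 in place of 1.62 for Serpina3g and 0.48 in place of 1.38 for Serpina3f. Among the libraries sorted on day 3.5 the Lrg1 difference was 3.80, with a limma adjusted p of 0.0561.

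Many calls, but not all, were lost in fits that left out a single animal and so rested on fewer animals. Sbno2, Serpina3f and Serpina3g were called in each of 13 other settings and without any 1 of the 7 animals. Of these settings, sort day as a covariate and the libraries sorted on day 3.5 give the same differences. Lrg1, Ifitm3, Xaf1, Col4a2, Sparc and Scgb3a1 were also called without any 1 of the 7 animals, and Col4a1 and Tmem252 without any but day 3.5 animal 2. Tmem88 and Cemip2 were not called without day 0 animal 1 or day 3.5 animal 2, and Rps20 also not without day 0 animal 2. Cebpd, Rpl32, S100a11, Atpif1 and Cdkn2b were called in 3 of the 7 fits that leave out 1 animal, Timp3, Fxyd5, Zbtb16, Ldha, Prdm1 and Hmgb2 in 2, Bcl3, Usp18 and Sparcl1 in 1 and Bst2 in 0.

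The same genes were measured on day 1.5, against the same control animals, so the comparisons share their controls. The differences from day 0 on mean log2 values were 2.41 ± 0.30 on day 1.5 beside 2.28 ± 0.30 on day 3.5 for Sbno2, 2.86 ± 0.60 beside 3.73 ± 0.60 for Lrg1, 2.13 ± 0.32 beside 2.16 ± 0.32 for Ifitm3 and 3.33 ± 0.48 beside 2.83 ± 0.48 for Col4a1. Tmem88 (0.74 ± 0.50 beside 2.56 ± 0.50), Scgb3a1 (0.49 ± 0.20 beside 1.61 ± 0.20) and Zbtb16 (-1.09 ± 0.39 beside 1.69 ± 0.38) stood nearer to or below the controls on day 1.5. The difference between the days was not tested here.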

How the data were processed

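ECs were analyzed from lungs of uninjected animals (day 0, n = 4) and animals on day 3.5 after injection (n = 3). The authors deposited estimated counts per gene and cell in 1 table per lane and a filtered table of log10 values. The submitters' processing notes name bcl2fastq, Salmon 0.7.2 and the build GRCm38. In the filtered table the authors divided each estimated count by the mean of a housekeeping panel in its cell (8 of 11 named genes were found), multiplied by 10000 and took log10 of the value plus 1. Such values are relative to that panel. Kept cells were matched to the raw tables by their number within the day.

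Estimated counts were summed per animal and rounded, giving 10 libraries with those of day 1.5 (n = 3), which share 1 estimate of the spread. Summed counts were tested with edgeR 4.0.16 (quasi-likelihood, TMM, filterByExpr) in R 4.3.3. Mean log10 values per animal were divided by log10 of 2, centered on each library's median over the genes tested, and tested with limma 3.58.1 (trend) for the 7578 genes detected in at least 10% of the 2479 kept ECs. P-values were adjusted by Benjamini-Hochberg over all genes tested, with a threshold of 0.05. CPM are counts scaled to the total of the summed library. Class scores used Seurat 5.3.0, and class shares an exact permutation test on the absolute difference. DESeq2 1.42.0 on summed counts, other filters, scales and cell sets, and each animal left out were alternatives. Sort day and the median of detected genes as covariates, and libraries sorted on day 3.5 alone, were added after seeing the data. Both tests were tested on simulated data with known changes. For shares at equal depth each cell was thinned to 100000 reads and shallower cells were left out (16 to 40 per animal on day 0, 29 to 55 on day 3.5). Intervals and limits for counts of 0 cover counting error only.

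Members, gene lists and tests were chosen with earlier results of these data known. Named were the 12 higher and the 12 lower called genes with the largest difference on mean log2 values, the 6 higher and the 6 lower genes of smallest edgeR p among genes detected in at least 5% of cells, up to 5 called members of each of 33 lists (otherwise up to 3 of smallest p), and the angiokines. Serpina3f, Serpina3g, Serpina3i, Scgb3a1, Timp1, Timp3, Tppp3 and Mlec, and members of lists beyond this number, were chosen after their values were seen. Gene positions are those of GENCODE vM21 and promoters those of RefSeq (GRCm38.p6). Replicate numbers did not pair animals between days, and doublets were not called, 1 cell having been sorted to a well. Correlations between animals of a group were 0.951 to 0.979 on mean log2 values and 0.874 to 0.912 on log2(CPM + 1).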

Additional observations from a re-analysis of the deposited data

Results flagged for a closer look

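Among 61 values of the 4 day 0 animals, 8 had 1 animal far from the other 3 by Dixon's test, where chance alone sets about 1 in 20 groups apart. On mean log2 values they were Prdm1 in animal 4 at -0.38 (the others 0.22 to 0.27), S100a11 in animal 1 at 1.37 (1.65 to 1.67), Sparcl1 in animal 3 at 0.16 (-0.15 to -0.11) and Rgcc, a cell cycle regulator called higher on day 3.5, in animal 2 at -0.64 (-0.95 to -0.90). On summed counts they were Rhpn2 in animal 2 at 7.48 CPM (4.97 to 5.15), Selenos in animal 3 at 146.8 CPM (213.8 to 223.1), Timp1 in animal 2 at 0.762 CPM (0 to 0.012) and Cxcl10 in animal 4 at 0.012 CPM (0 in the others). For S100a11, Sparcl1, Rgcc, Rhpn2 and Timp1 every day 3.5 animal still lay above, and for Prdm1 and Selenos below, all 4 controls on the same scale.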

How the results depend on the processing

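On mean log2 values, where 1.57% of genes were called, limma called 5.94% without centering (450 genes, of which 448, or 99.6%, were higher, against 86.6%), 0.871% on log2(CPM + 1), 0.607% on log2(CPM + 10), 3.55% in the 7 libraries alone (82.9% higher) and 0.977% in gCaps. Chosen after seeing the data, sort day gave 0.132%, the libraries sorted on day 3.5 gave 0.106% and the median of detected genes gave 0.792%. Leaving out 1 animal gave 0.158% (without day 3.5 animal 2) to 2.15% (without day 3.5 animal 1). The replicate block gave 6.19% (469 genes, 73.1% higher), but same-numbered animals did not deviate together (correlations 0.066, 0.015 and 0.096), so they share only a number. Filters at 5% and 20% of cells gave 1.26% and 2.19% (71.9% higher), removal of cells over 5% mitochondrial reads 1.62% and the deposited capillary cells 1.49%. On summed counts edgeR called 0 genes and DESeq2 473. edgeR called 1 without the cell of most reads per gene and animal and in the capillary cells (Timp1 both times), and 0 to 1 with 1 animal left out (Hist1h2ae without day 0 animal 1, Timp1 without day 0 animal 2, Cxcl10 without day 3.5 animal 2). It called 0 with the block and in every other setting. With class scores on log2(CPM + 1) the gCap difference was -2.41 in place of 2.31 points and the large vessel difference 5.95 in place of 2.62 points (exact permutation p 0.0286, as for aCaps). The gCap difference was -0.34 without day 3.5 animal 2 and 5.78 without animal 1, the large vessel difference 1.68 without animal 1, and the cycling difference 1.03 in place of 2.20 without animal 3. No class passed an adjusted p of 0.05 in any setting. The cause of these shifts was not tested. Precision is limited by 3 and 4 animals and, for genes in few cells, by 1 cell.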
